A study of Mus musculus with 4 samples.

Results

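Broad domains of dimethylated lysine 4 of histone H3 (H3K4me2) were examined in mouse embryonic stem cells: 341 stretches of 5 kb or more, out of 23226 autosomal H3K4me2 domains. A domain was made by joining regions of the authors' H3K4me2 list that lay within 1 kb of each other, and it was kept if it spanned at least 5 kb and touched no region of the list for control IgG. Members were thus chosen by the H3K4me2 and IgG libraries, through where regions had been called and how close they lay, and every H3K4me2 value below is a description. The cells were the R1 line of strain 129SV, used at passages 13 to 18 and grown with leukaemia inhibitory factor, without any other treatment or genetic change named in the labels. The 4 groups were chromatin recovered with an antibody labelled as against LSD1, chromatin recovered with an antibody against H3K4me2, chromatin recovered with control IgG, and the same chromatin without immunoprecipitation (Input). With 1 library to a group, differences are between these libraries, without any check by replicates and without p-values. The labels list the LSD1 antibody under a catalogue number that another supplier is known to use for H3K27me3, so the name LSD1 follows the label.

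H3K4me2 is laid down around active promoters and on enhancers, usually in stretches of a few nucleosomes. Long, nearly unbroken stretches of lysine 4 methylation are known from genes that are important to a cell's identity, and in embryonic stem cells Pou5f1 and Esrrb are such genes. LSD1, the product of Kdm1a, demethylates that lysine when it carries 1 or 2 methyl groups, and in stem cells it is known to sit at active promoters and enhancers, where its own substrate is found.

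Names could be given to 17 of the 341 broad domains, from general knowledge of where genes lie in mm9 and not from an annotation. A list of 36 loci put names on 8 of them, at Pou5f1, Junb, Mllt6, Myc, Tbx3, Sall4 and Tfcp2l1. The other 9 lie at Esrrb, Ccnd1, Fgf4, Socs3, Rarg and Etv5, 6 loci added after their values had been seen. Promoter sequences of RefSeq, in build GRCm38.p6, were on hand for 9 of these 13 loci and were not used to place any domain, since the domains are in mm9. They run from 250 bases before to 50 after the gene's first listed start and are shown because methylation of lysine 4 is known to be frequent at promoters rich in the dinucleotide CG, set here in capitals. CG reads the same on both strands. The count of CG was lowest at Esrrb, with 7, and highest at Mllt6, with 46. Both ends of that range are printed 5′ to 3′ with Pou5f1 and Junb, whose domains are described in detail further on. Esrrb lies on the plus strand at chr12:86360867-86361166, Mllt6 on the plus strand at chr11:97663162-97663461, Pou5f1 on the plus strand at chr17:35505782-35506081 and Junb on the minus strand at chr8:84978699-84978998, all in GRCm38.p6.
Esrrb: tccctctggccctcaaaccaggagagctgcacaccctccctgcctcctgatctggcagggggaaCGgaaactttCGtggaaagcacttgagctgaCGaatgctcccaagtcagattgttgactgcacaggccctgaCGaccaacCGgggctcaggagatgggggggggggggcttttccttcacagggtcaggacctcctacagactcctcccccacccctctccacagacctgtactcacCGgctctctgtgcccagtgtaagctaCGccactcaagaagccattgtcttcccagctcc
Mllt6: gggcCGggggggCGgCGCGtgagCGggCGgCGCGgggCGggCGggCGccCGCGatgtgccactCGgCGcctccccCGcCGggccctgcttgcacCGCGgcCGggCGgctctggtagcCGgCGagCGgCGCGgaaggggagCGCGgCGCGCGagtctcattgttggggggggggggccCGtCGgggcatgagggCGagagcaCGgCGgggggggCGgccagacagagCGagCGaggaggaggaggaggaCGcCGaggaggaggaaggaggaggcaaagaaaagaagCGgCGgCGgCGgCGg
Pou5f1: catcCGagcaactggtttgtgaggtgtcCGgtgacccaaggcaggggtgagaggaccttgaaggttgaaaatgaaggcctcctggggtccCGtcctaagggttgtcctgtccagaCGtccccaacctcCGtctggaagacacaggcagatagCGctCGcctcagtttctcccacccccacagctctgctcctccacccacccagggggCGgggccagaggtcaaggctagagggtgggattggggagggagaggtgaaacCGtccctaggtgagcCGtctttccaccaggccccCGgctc
Junb: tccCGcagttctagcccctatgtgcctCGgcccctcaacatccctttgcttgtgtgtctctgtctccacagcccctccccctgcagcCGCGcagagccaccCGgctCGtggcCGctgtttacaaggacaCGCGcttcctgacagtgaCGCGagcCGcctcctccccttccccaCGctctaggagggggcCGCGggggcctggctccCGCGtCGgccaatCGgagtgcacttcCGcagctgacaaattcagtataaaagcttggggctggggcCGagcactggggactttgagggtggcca
Of 32851 promoter windows of this length in the table, 52.1% held at least as many CG as that of Esrrb, 41.4% as many as that of Pou5f1, with 11, 24.8% as many as that of Junb, with 21, and 1.65% as many as that of Mllt6. The 9 windows on hand thus ranged from the middle of the table to its CG-rich end, and whether each lies inside its gene's broad domain was not tested.

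The LSD1 library held 5833862 reads, the H3K4me2 library 6416657, the IgG library 4755619 and the Input library 3801082, each read counted once per start and strand. Values are given as reads, as reads per 1000000 reads of the library (RPM), or as RPM per kb of domain, and ratios between libraries are ratios of RPM. Intervals are 95% intervals for counting error only and say nothing about other cultures of the cells. A limit of 3 reads, the most that a count of 0 allows, was worth 0.514 RPM in the LSD1 library, 0.468 RPM in H3K4me2, 0.631 RPM in IgG and 0.789 RPM in Input. Over the mapped genome LSD1 had a mean density of 0.405 RPM per kb, H3K4me2 of 0.406, IgG of 0.404 and Input of 0.401. One broad domain stood apart in all 4 libraries, chr11:3041358-3048968 in mm9, a single unbroken H3K4me2 region of 7611 bp near the start of the sequenced chromosome. It held 933 LSD1 reads, 1154 H3K4me2 reads, 661 IgG reads and 451 Input reads, while no other member had more than 487, 937, 85 and 44 reads in these libraries. Its LSD1 to IgG ratio was 1.15 (1.04 to 1.27). The main pooled values are given with and without it.

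Broad domains were mosaics of called regions and short gaps. The 341 domains covered 2.38 Mb, with a median width of 6369 bp, quartiles of 5536 and 7659 bp and a range of 5001 to 18465 bp. They were assembled from 1511 H3K4me2 regions, with a median of 4 to a domain. A total of 247 domains held 3 to 5 regions, 22 held fewer and 72 held more, up to 11. Only 3 domains consisted of 1 region, or 0.880% (0.182 to 2.55%), against 12.1% of the domains of 2 to 5 kb. The widest region of a member had a median of 2180 bp, and 51 members had more than 50% of their width in 1 region. The 1170 gaps were mostly short: 516 were below 200 bp, 385 were 200 to 600 bp and 269 were over 600 bp, with a median of 242.5 bp and a limit of 998 bp set by the joining distance. Gaps made up 16.9% of the total length. In single domains this share ranged from 0 to 45.8%, with a median of 16.5%. Broad domains were therefore close to filled with H3K4me2 regions, and very few of them were called as 1 piece. The filling was shared by domains of 2 to 5 kb, where gaps made up 16.2% of the length. Both traits lean on the rule, since no gap could exceed the joining distance and joining adds width and pieces together.

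LSD1 was above IgG in every broad domain, including those in which no LSD1 region had been called; of the 3 domains of this width left out for touching an IgG region, it was below IgG in 2. Per domain, LSD1 reads numbered 66 at the lowest, 134 at the median and 933 at the highest. H3K4me2 reads numbered 158, 286 and 1154, IgG reads 15, 32 and 661, and Input reads 3, 15 and 451. The LSD1 density had a median of 3.45 RPM per kb (quartiles 3.15 and 3.95), the H3K4me2 density one of 6.91 (6.35 and 7.46), the IgG density one of 1.05 (0.886 and 1.19) and the Input density one of 0.582 (0.461 and 0.689). LSD1 stood between H3K4me2 and IgG in all 341 domains. IgG was above Input in 325 of them and below it in 16.

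Over all members pooled, LSD1 over IgG was 3.28 (3.21 to 3.34), and 3.40 (3.33 to 3.47) without the chr11 domain of most Input reads. With 0.5 reads added to both counts, the ratio reached 2 in 336 of the 341 broad domains, or 98.5%, while among all 23209 autosomal domains touching no IgG region it did so in 82.0%. The interval of the single domain lay above 1 in all 341 broad domains and in 63.3% of all autosomal domains. Both shares depend on the number of reads in a domain, which grows with its width, whereas the pooled ratios by width given further on do not. H3K4me2 over IgG, which the choice of members used, was 6.42 (6.31 to 6.55) pooled and 6.71 (6.59 to 6.84) without the chr11 domain. It reached 2 in 340 of 341 members, beside 99.5% of all domains. LSD1 over IgG had quartiles of 2.91 and 3.81 around a median of 3.36 among members. The quartiles lay further apart in narrower domains. They were 1.98 and 4.62 below 1 kb, 2.51 and 4.52 at 1 to 2 kb, and 2.67 and 4.16 at 2 to 5 kb. Narrower domains hold fewer reads, and the part of read number in this trend was not tested. In 315 members the interval included the pooled value of 3.28, and the other 26 divided into 19 above and 7 below it. Some would miss a shared value by counting error alone, and the same count was not made for other domains. The value of 3.28 includes the chr11 domain of most Input reads.

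LSD1 density followed H3K4me2 density across broad domains, with a Spearman rho of 0.642 and a Pearson r of 0.852 over the 341 domains. Without the chr11 domain of most Input reads r was 0.662. LSD1 density also followed IgG density, with a rho of 0.412, and all densities share the mappability and base composition of a domain. Width was barely related to LSD1 over IgG, with a rho of 0.0857. These coefficients describe domains of the same libraries and carry no test.

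**Figure D1:**
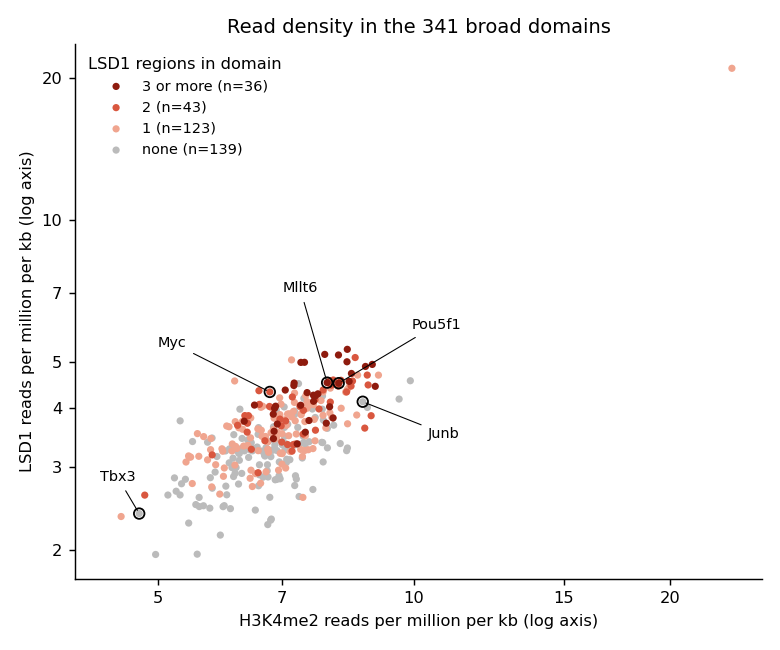
LSD1 density against H3K4me2 density (RPM per kb, log axes) in the 341 broad domains, 1 point a domain, shaded by the number of called LSD1 regions in it, with 5 named domains circled. The densities move together, with a rho of 0.642, and the single point at the upper right is the chr11 domain with 933 LSD1 reads.

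Called LSD1 regions were frequent in broad domains, but per length they were not more frequent there than in domains of 1 to 5 kb. A broad domain held at least 1 LSD1 region in 202 of 341 cases, or 59.2% (53.8 to 64.5%), while the share over all autosomal domains was 17.8%. Sorted into widths of less than 1 kb, 1 to 2 kb, 2 to 5 kb and 5 kb or more, domains held an LSD1 region in 7.83%, 23.6%, 36.8% and 59.2% of cases. Counted per Mb, LSD1 regions numbered 122.1, 177.5, 159.1 (151.4 to 167.0) and 141.6 (126.9 to 157.6) in the same classes. The order of the last 3 classes was thus the opposite of that of the shares, although the intervals of the broad domains and those of 2 to 5 kb overlapped. Among broad domains, those of 5 to 6 kb held an LSD1 region in 56.4% of cases, those of 6 to 8 kb in 54.7% and those of 8 kb or more in 72.6% (60.9 to 82.4%). Their numbers of LSD1 regions per Mb were 137.2, 146.4 and 140.4.

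Pooled LSD1 enrichment changed little with width. In the same 4 classes, LSD1 over IgG was 3.22, 3.40, 3.41 (3.38 to 3.45) and 3.28. Broad domains divided by domains of 2 to 5 kb gave 0.960 (0.939 to 0.981), and 0.995 (0.973 to 1.02) without the chr11 domain of most Input reads, so 1 domain decided whether the interval excluded 1. LSD1 over H3K4me2, a ratio without IgG, was 0.510 in broad domains and 0.537 in domains of 2 to 5 kb, 0.950 (0.939 to 0.962) times as high, or 0.943 (0.932 to 0.954) without that domain. The controls moved with width as well: Input density was 0.447, 0.494, 0.521 and 0.634 RPM per kb from the narrowest to the broadest class, and IgG over Input was 2.31, 2.19, 2.01 and 1.73. Without the chr11 domain, Input density in broad domains was 0.586 (0.570 to 0.602) RPM per kb and IgG over Input was 1.78, so that this 1 domain made up a large part of the last step in Input. Against Input, LSD1 in broad domains divided by that in domains of 2 to 5 kb was 0.826 (0.801 to 0.852), and 0.880 (0.852 to 0.908) without the same domain. The part of the Input difference in these ratios was not tested.

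**Figure D2:**
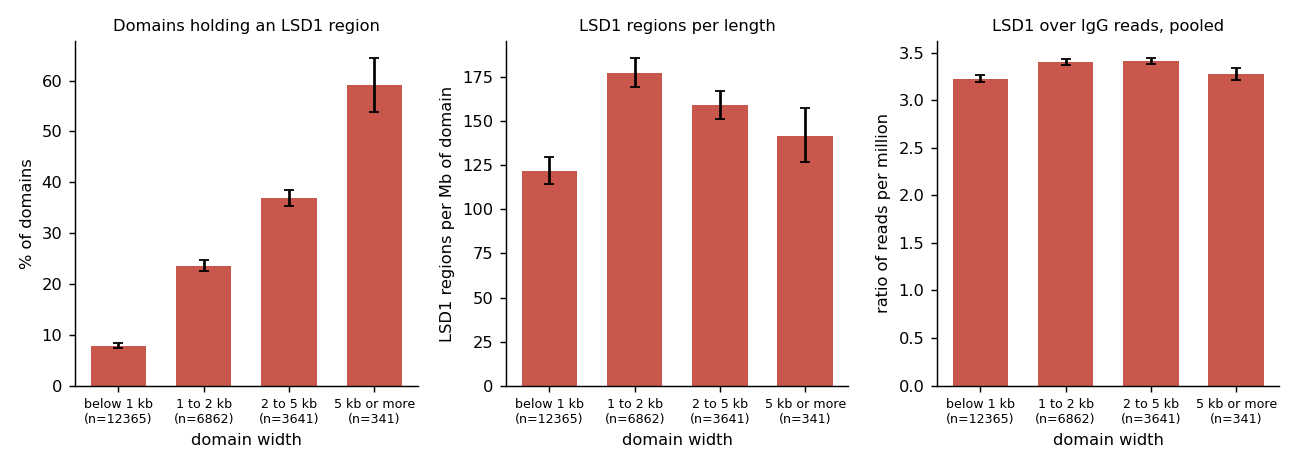
Share of H3K4me2 domains with an LSD1 region (%), LSD1 regions per Mb of domain and pooled LSD1 over IgG (ratio of RPM) by domain width, with n domains under each bar and 95% counting intervals as error bars. The share is 59.2% at 5 kb or more, the highest of the 4 classes, while regions per Mb are highest at 1 to 2 kb and the ratio stays between 3.22 and 3.41.

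Of the 5095 autosomal LSD1 regions, 337 lay in broad domains, or 6.61%. They were spread unevenly over the members: 139 domains had none, 123 had 1, 43 had 2, 22 had 3, 9 had 4, 4 had 5 and 1 had 6. Their median width of 513 bp was close to the 459 bp of LSD1 regions elsewhere. LSD1 over IgG was 3.32 in the 202 domains with an LSD1 region and 3.20 in the 139 without, a ratio of 1.04 (0.997 to 1.08), or 1.10 (1.06 to 1.15) from 3.51 in the domains with an LSD1 region once the chr11 domain was left out, so that 1 domain decided whether the interval excluded 1. IgG over Input was 1.82 in the domains with an LSD1 region and 1.58 in those without, a ratio of 1.15 (1.08 to 1.23), or 1.22 (1.14 to 1.30) without the chr11 domain. The part of this control difference was not tested. Of the 139 domains without a called LSD1 region, 136 had at least 2 times as many LSD1 as IgG RPM. Of the 202 with an LSD1 region, 200 did so. The share was 98.5% over all broad domains and 82.0% over all autosomal domains touching no IgG region, and it depends on reads per domain. The share over all autosomal domains without a called LSD1 region was not computed. In these broad domains, the absence of a called LSD1 region did not mean absence of LSD1 reads.

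The LSD1 regions sat inside the broad domains rather than at their rims. The inner 50% of the length held 196 of the 337 centres, or 58.2% (52.7 to 63.5%), and the outer 20%, taken as 10% at either end, held 41, or 12.2% (8.87 to 16.1%). Neither interval included the share of length covered. The intervals treat the 337 regions as independent, although a domain can hold several, so this is no test. The shares were not repeated with other joining distances. In steps of 10% of the width, the number of centres was 19, 26, 36, 46, 53, 30, 36, 33, 36 and 22. The median distance from a centre to the nearer edge was 2002 bp. An LSD1 region that touches a domain can be centred outside it, but all 337 centres lay inside. Where a domain held several, neighbouring centres were 1628 bp apart at the median (quartiles 908.5 and 2384 bp, 135 pairs).

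LSD1 regions were centred on H3K4me2 regions and seldom on the gaps between them. Only 8 of 337 were centred in a gap, or 2.37% (1.03 to 4.62%), although gaps were 16.9% of the length. Within domains of several H3K4me2 regions, 161 of 327 LSD1 centres, or 49.2% (43.7 to 54.8%), were in the region densest in H3K4me2 reads, which made up 32.0% of the region length. The widest region held 180 of them, or 55.0% (49.5 to 60.5%), and made up 43.4% of the region length. LSD1 regions were thus more frequent in the densest and in the widest H3K4me2 region than the length of these would give. These intervals also treat LSD1 regions as independent. H3K4me2 regions touching an LSD1 region had 1.05 (1.01 to 1.10) times the LSD1 over IgG of those touching none. Their IgG density was 1.40 against 1.03 RPM per kb and their Input density 0.75 against 0.62. The chr11 domain of most Input reads is among them. The part of this control difference in the placement was not tested.

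LSD1 reads showed the same layout without any use of the LSD1 list. The domains apart from the chr11 domain of most Input reads were divided into windows of 500 bp, and within each domain the windows were ranked by H3K4me2 reads. LSD1 over IgG was 3.89 (3.76 to 4.03) in the top of 3 near-equal classes of windows, 3.39 in the middle class and 2.97 (2.86 to 3.08) in the bottom class. The top class divided by the bottom class was 1.31 (1.25 to 1.38) for LSD1 over IgG. For H3K4me2 over IgG it was 1.88, and for IgG over Input it was 1.09 (1.00 to 1.18). Ranking windows by H3K4me2 reads itself raises the H3K4me2 value, so it cannot be compared with the LSD1 value.

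Gaps inside broad domains kept LSD1 reads above the level of the flanks. The 1170 gaps had an LSD1 over IgG of 2.52 (2.38 to 2.66), the H3K4me2 regions of the same domains one of 3.40 (3.33 to 3.47), or 3.55 (3.47 to 3.62) without the chr11 domain of most Input reads, which has no gap. Gaps divided by regions gave 0.741 (0.699 to 0.785), or 0.710 (0.669 to 0.753) without it. In domains of 2 to 5 kb the same ratio was 0.619 (0.602 to 0.637), from 2.25 in gaps and 3.63 in regions. IgG over Input was nearly equal in gaps and regions of broad domains, at 1.71 and 1.73, or 1.71 and 1.79 without the chr11 domain, whereas in domains of 2 to 5 kb gaps divided by regions was 1.28 (1.22 to 1.34) for IgG over Input. The part of that control difference in the comparison of the 2 classes was not tested. The drop of H3K4me2 in gaps, which the calling of regions fixes, was steeper, with H3K4me2 over IgG at 3.01 in gaps and 6.97 in regions, or 7.34 in regions without the chr11 domain. LSD1 over H3K4me2 was accordingly 0.837 in gaps and 0.488 in regions, or 0.483 without it.

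Among the parts of broad domains compared, only the shortest gaps held more LSD1 than H3K4me2 reads. Gaps of 200 bp or less, 517 in all, held 617 LSD1 reads, 437 H3K4me2 reads, 181 IgG reads and 86 Input reads. LSD1 over IgG was 2.78 (2.35 to 3.30) there and H3K4me2 over IgG was 1.79 (1.50 to 2.14). In gaps of over 200 and up to 600 bp the ratios to IgG were 2.68 for LSD1 and 2.99 for H3K4me2, and in gaps over 600 bp they were 2.36 and 3.26. A gap is by definition a stretch not called for H3K4me2, whereas LSD1 was not used to place it.

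In flanks without an H3K4me2 region, LSD1 fell off within a few kb of the broad domains. LSD1 over IgG was 1.93 (1.84 to 2.02) in the first kb from the edge, 1.49 in the next and 1.29 (1.25 to 1.34) from 2 kb to 5 kb. H3K4me2 over IgG was 2.85 in the first and 1.61 in the last of these. Such flanks numbered 682, 574 and 426 in this order, so the set changed with distance. With neighbouring H3K4me2 regions left in, LSD1 density on the left and right was 1.753 and 1.853 RPM per kb in the nearest 500 bp. It was 1.413 and 1.475 in the next 500 bp, and 1.482 and 1.374 in the furthest. The gaps of broad domains thus lay above their nearest flanks, 2.52 against 1.93, for LSD1. The nearest flanks include those of the chr11 domain of most Input reads, which has no gap. A flank value without that domain is not given. Gaps had an H3K4me2 region at either end and a median length of 242.5 bp, whereas these flanks reached a full kb from the edge. The part of this nearness to H3K4me2 regions in the difference was not tested.

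**Figure D3:**
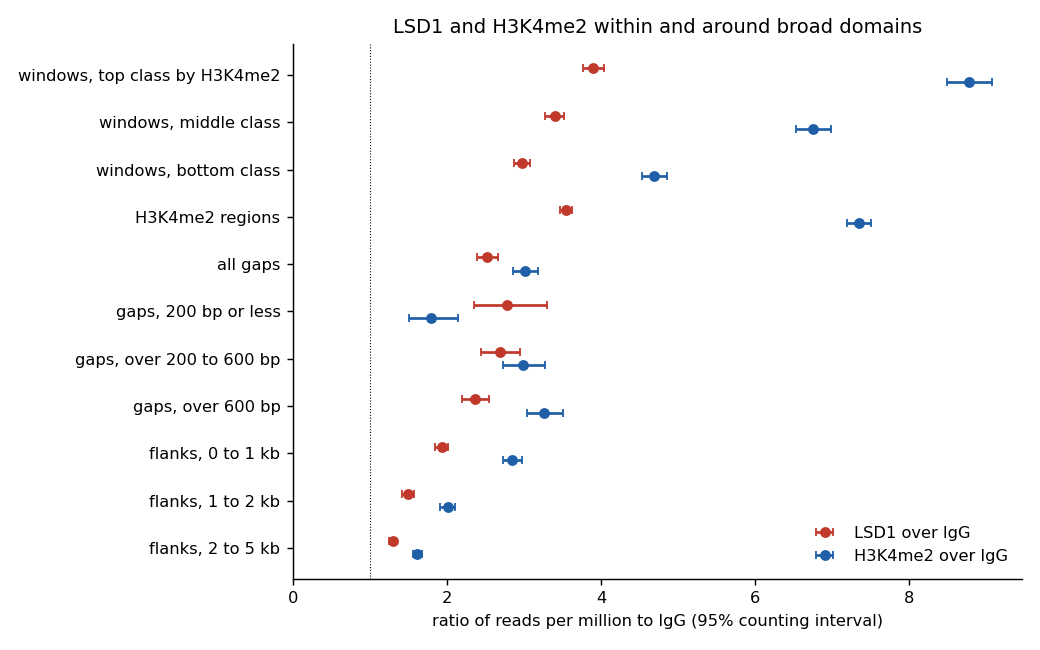
LSD1 over IgG and H3K4me2 over IgG (ratios of RPM, with 95% counting intervals) in 500 bp windows ranked by H3K4me2 within each domain, in H3K4me2 regions, in gaps by length and in flanks free of H3K4me2 regions, around and within broad domains, with the chr11 domain of most Input reads left out of the windows and regions. LSD1 stands at 3.89 in the top class of windows, 2.52 in gaps and 1.29 at 2 to 5 kb outside, and exceeds H3K4me2 in gaps of 200 bp or less alone.

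Along the scaled length of 340 broad domains the LSD1 density lay between 2.96 and 3.81 RPM per kb in steps of 5% of the width, and the H3K4me2 density lay between 6.27 and 7.77. IgG stayed between 0.941 and 1.13 RPM per kb and Input between 0.519 and 0.661. In the 5 kb on either side, with neighbouring H3K4me2 regions left in, LSD1 was 1.36 to 1.85 and H3K4me2 1.90 to 2.67 RPM per kb. The inner 50% of the length divided by the outer 50%, 25% at either end, gave 1.06 (1.02 to 1.10) for LSD1 over IgG and 1.03 (0.993 to 1.07) for H3K4me2 over IgG in these 340 domains. With the chr11 domain the values were 1.05 (1.01 to 1.09) and 1.02 (0.986 to 1.06). The LSD1 value was 0.965 (0.939 to 0.992) when regions up to 2 kb apart were joined, so its direction depended on the joining distance.

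**Figure D4:**
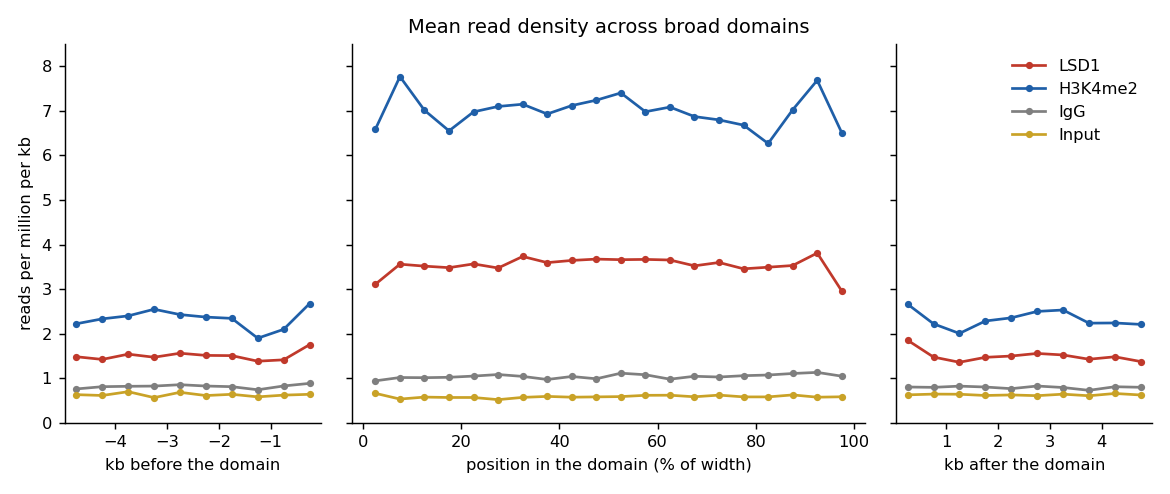
Mean read density (RPM per kb) of the 4 libraries across 340 broad domains scaled to the same width (middle, % of width) and in the 5 kb before and after them. LSD1 lies between 2.96 and 3.81 within the domains, below H3K4me2 and above IgG and Input at every position.

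Single domains at named genes show how these parts combine. The widest of all, chr11:97516486-97534950 at Mllt6, a gene known in human leukaemia as a fusion partner of MLL, spanned 18465 bp with 9 H3K4me2 regions and 6 LSD1 regions, the most of any member. It held 487 LSD1 reads, 937 H3K4me2 reads, 85 IgG reads and 39 Input reads, and LSD1 over IgG was 4.67 (3.70 to 5.95). Its LSD1 regions were centred 5621, 6395, 9862, 10537, 14677 and 16705 bp from the left edge, so that the first 5 kb, with 4 H3K4me2 regions, had none.

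The domain of Pou5f1, which encodes the pluripotency factor Oct4, lay at chr17:35639325-35647270 and was 7946 bp wide, with 4 H3K4me2 regions and 5 LSD1 regions. It held 209 LSD1 reads, 416 H3K4me2 reads, 45 IgG reads and 13 Input reads, and LSD1 over IgG was 3.79 (2.73 to 5.35). The LSD1 region with the most reads was 983 bp wide, 6965 bp from the left edge, and held 45 LSD1 reads, 70 H3K4me2 reads, 7 IgG reads and 3 Input reads. The LSD1 region centred 2670 bp from that edge was 1 of the 8 centred in a gap. That gap of 208 bp held 10 LSD1 reads, 2 H3K4me2 reads, and 0 IgG and Input reads. Counts of this size show LSD1 reads in the gap but do not fix a ratio.

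Ccnd1, which encodes the cell cycle regulator cyclin D1, had a domain of 6444 bp at chr7:152123432-152129875 with 3 H3K4me2 regions and 5 LSD1 regions. It held 171 LSD1 reads, 347 H3K4me2 reads, 36 IgG reads and 8 Input reads, and LSD1 over IgG was 3.87 (2.69 to 5.71). Its LSD1 regions were spread over the whole domain, the first centred 299 bp from the left edge and the last 6019 bp from it. Myc, the growth regulator, had a domain of 5753 bp at chr15:61815652-61821404 with 145 LSD1 reads, 250 H3K4me2 reads, 26 IgG reads and 10 Input reads, an LSD1 to IgG ratio of 4.55 (2.98 to 7.19). Both of its LSD1 regions were in the third of its 4 H3K4me2 regions, which was also the widest. At Ccnd1 the LSD1 regions thus ran from edge to edge, and at Myc they lay in the middle.

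Junb and Tbx3 held no called LSD1 region but stood at opposite ends of the LSD1 to IgG ranking. Junb, an immediate early gene of the AP-1 family, had a domain of 5495 bp at chr8:87499513-87505007 with 132 LSD1 reads, 307 H3K4me2 reads, 18 IgG reads and 11 Input reads. Its LSD1 over IgG was 5.98 (3.64 to 10.4), rank 4 of 341. Its 3 gaps made up only 4.60% of its length. Tbx3, a transcription factor gene active in naive stem cells, had a domain of 5176 bp at chr5:120118242-120123417 with 72 LSD1 reads, 158 H3K4me2 reads, 35 IgG reads and 9 Input reads. Its LSD1 over IgG was 1.68 (1.11 to 2.59), rank 340, and its gaps made up 32.4% of the length. The intervals of Junb and Tbx3 did not overlap, but the pair was set side by side for its opposite ranks, so this is no test. Tbx3 had the lower LSD1 and the higher IgG count of the pair.

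**Figure D5:**
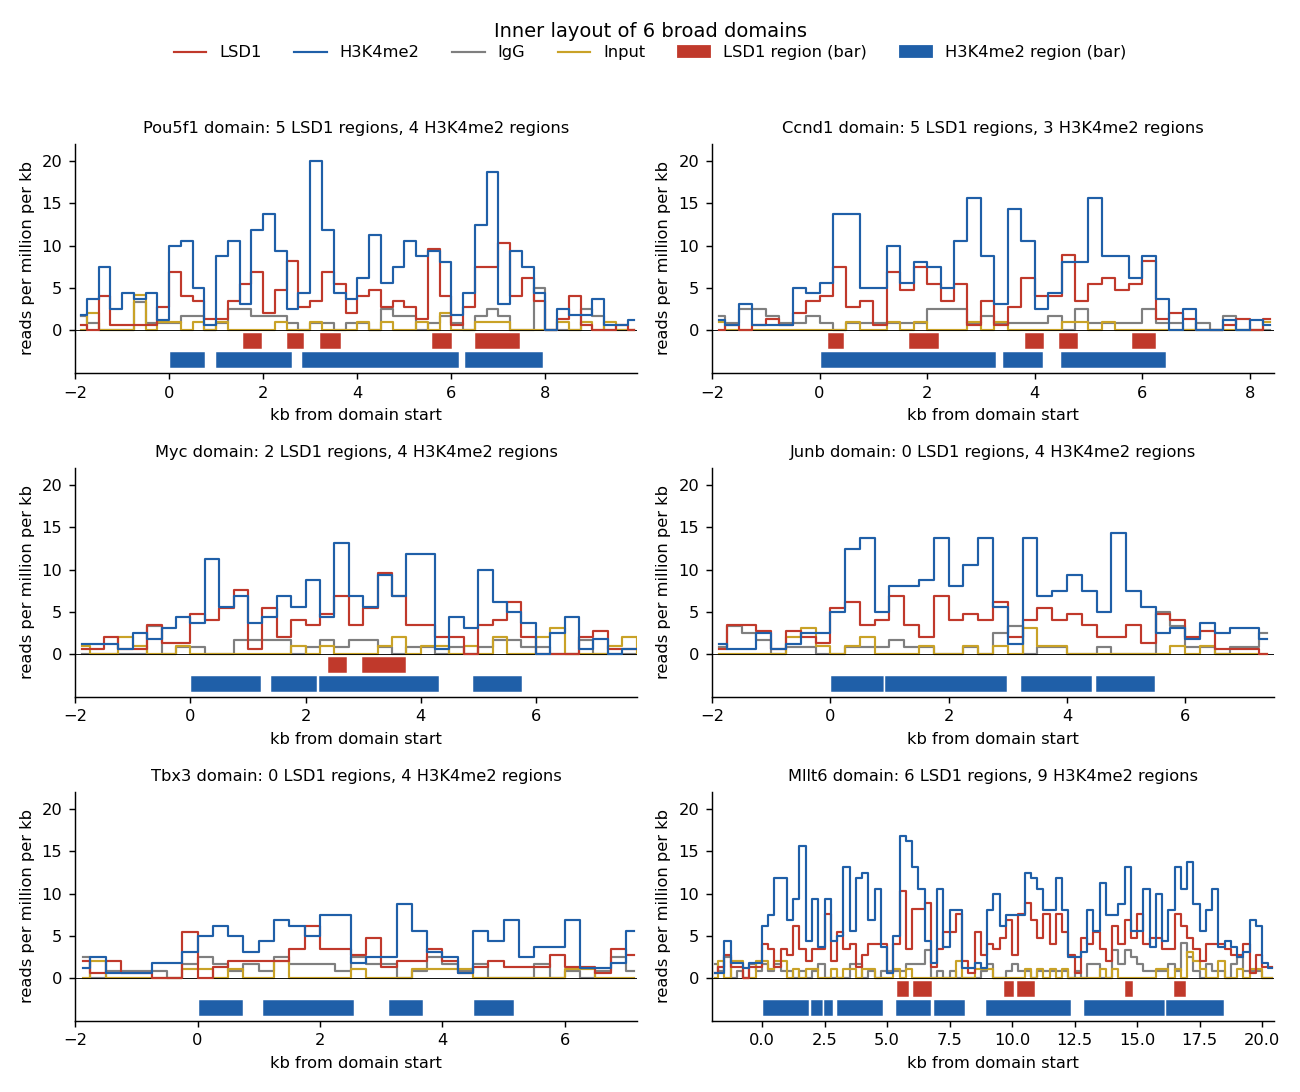
Read density (RPM per kb in windows of 250 bp) of the 4 libraries over 6 named broad domains and 2 kb on either side, with called LSD1 regions as upper bars and H3K4me2 regions as lower bars. LSD1 regions number 5 at Pou5f1, 5 at Ccnd1, 2 at Myc, 0 at Junb, 0 at Tbx3 and 6 at Mllt6, and LSD1 reads lie above IgG over most of each domain.

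Esrrb, an orphan nuclear receptor of the pluripotency network, carried 4 broad domains in a row, at chr12:87804695-87811485, chr12:87812561-87821324, chr12:87827322-87836130 and chr12:87841202-87848951. They span 44.3 kb, and the first pair is 1.08 kb apart, just over the joining distance and the closest of any broad domains. Counted together they held 4 LSD1 regions, 2 in the second and 2 in the fourth, and LSD1 over IgG was 3.90 (3.23 to 4.72). The second had the most reads, with 223 LSD1, 440 H3K4me2, 39 IgG and 26 Input reads, with LSD1 over IgG at 4.66 (3.31 to 6.73). The other 3 had ratios of 3.83, 3.76 and 3.30. All 4 intervals overlapped.

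The remaining named domains lay between these. Socs3, a feedback inhibitor of signalling by leukaemia inhibitory factor, had 8690 bp at chr11:117823178-117831867, 3 LSD1 regions and an LSD1 to IgG ratio of 4.19. Rarg, a retinoic acid receptor gene, had 12000 bp at chr15:102069393-102081392, 4 LSD1 regions and a ratio of 4.70, with 346 LSD1 reads, 688 H3K4me2 reads, 60 IgG reads and 39 Input reads. Sall4, a pluripotency factor gene, had 5116 bp at chr2:168584910-168590025, with 1 LSD1 region and a ratio of 4.57. Where this and the other named domains lie within their genes was not tested. Etv5, an ETS factor gene downstream of FGF signalling, had 9683 bp at chr16:22404632-22414314, no LSD1 region and a ratio of 2.93. Tfcp2l1, a naive pluripotency factor gene, carried a pair of domains, chr1:120522359-120527649 and chr1:120541705-120548355, without LSD1 regions and with ratios of 2.84 and 2.58. Fgf4, a growth factor gene expressed in stem cells, had 5358 bp at chr7:152046244-152051601 with 104 LSD1 reads, 245 H3K4me2 reads, 39 IgG reads and 15 Input reads, a ratio of 2.17 (1.49 to 3.23) and rank 334. Most listed loci had H3K4me2 without a broad domain: 34 of the 36 had a domain and 7 a broad one. Among pluripotency genes the widest domain was 1938 bp at Sox2, 1900 bp at Nanog, 2548 bp at Klf4, 2916 bp at Klf2 and 3921 bp at Prdm14. At the housekeeping genes Actb and Gapdh it was 1435 and 3001 bp. The 4 Hox clusters, which pattern the body axis and are silent in stem cells, held 27 domains, the widest of them 1883 bp.

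The widest domains without a name followed the same plan. After Mllt6 came chr15:25682596-25699841 with 17246 bp and chr2:162876385-162893413 with 17029 bp, each of 11 H3K4me2 regions, the most of any member. They held 4 and 3 LSD1 regions, and LSD1 over IgG was 3.59 and 3.53. The next, chr18:65735869-65750704 with 14836 bp and chr5:123582016-123595058 with 13043 bp, had 2 and 5 LSD1 regions and ratios of 3.62 and 3.82. The other 5 of the 10 widest were 12327 to 12789 bp wide. Among these were the 3 widest without an LSD1 region, chr15:102034445-102047233, chr14:64115835-64128503 and chr11:97659010-97671336, with LSD1 over IgG of 2.74 (2.06 to 3.68), 3.65 (2.74 to 4.95) and 3.24 (2.46 to 4.31). A domain could therefore reach over 12 kb, with 215 to 262 LSD1 reads, and hold no called LSD1 region. The remaining 2 of the 10, chr6:122283844-122296488 and chr15:98812153-98824491, held 1 LSD1 region each and had ratios of 5.50 (3.76 to 8.30) and 3.45 (2.50 to 4.85).

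The highest and the lowest LSD1 over IgG came from members of 5176 to 7611 bp, none of them among the 10 widest. At the top were chr5:100471510-100478316, with 157 LSD1 reads, 301 H3K4me2 reads, 20 IgG reads and 17 Input reads and a ratio of 6.40 (4.01 to 10.8), and chr18:77799411-77805239 with 6.36. They were followed by chr14:52633160-52639427 with 6.06, Junb, and chr11:68934630-68939969 with 5.79. Of these 5, 3 held no LSD1 region. At the bottom, beside the chr11 domain of most Input reads and Tbx3, were chr2:91980545-91986341 with 66 LSD1 reads, 185 H3K4me2 reads, 32 IgG reads and 6 Input reads and a ratio of 1.68 (1.09 to 2.65), chr11:20127347-20132619 with 1.84 and chr1:183958016-183964504, whose 103 LSD1 and 42 IgG reads gave an interval of 1.38 to 2.94. The IgG counts of the 5 highest were 15 to 20 and those of the 5 lowest 31 or more, so the ranking followed the denominator as well as LSD1. The part of that count in the ranking was not tested.

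Of the members with the most LSD1 regions, Mllt6, Pou5f1, Ccnd1 and chr5:123582016-123595058 have been described. The last was chr11:98820841-98828379 with 7539 bp, 3 H3K4me2 regions, 5 LSD1 regions and a ratio of 4.15 (3.01 to 5.82). Of the 3 members made of 1 H3K4me2 region, the chr11 domain of most Input reads was the widest. The other two were chr8:109139448-109144983 with 5536 bp, 1 LSD1 region and 4.67 (2.95 to 7.72) for LSD1 over IgG, and chr11:117640450-117645595 with 5146 bp, no LSD1 region and a ratio of 3.10 (2.14 to 4.61).

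Broad domains were unevenly placed along the autosomes. Chromosome 11 held 47 and chromosomes 7 and 17 held 30 each, while the median chromosome had 0.118 per Mb. Chromosome 11 had 0.396 per Mb and chromosome 17 had 0.325. As a share of the H3K4me2 domains of a chromosome, broad domains ranged from 0.891% on chromosome 6 to 2.44% on chromosome 17, with 2.28% on chromosome 11 and a median of 1.37%. Pooled LSD1 over IgG was between 2.86 on chromosome 11 and 4.09 (3.54 to 4.73) on chromosome 18. Without the domain of most Input reads, chromosome 11 stood at 3.55 (3.37 to 3.75). The lowest value was then 3.01 (2.62 to 3.46), on chromosome 16.

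Some broad domains came in groups. The nearest other broad domain was 373.9 kb away at the median, but 68 members had one within 20 kb and 87 within 50 kb. Spacing of the other H3K4me2 domains was not compared, so whether grouping is particular to broad domains was not tested. Gaps just over the joining distance also count as a space between neighbours, as in the first pair at Esrrb. With a limit of 50 kb between neighbours, 25 members formed 8 runs of 3 or more. Besides the run at Esrrb, the run that includes Mllt6, chr11:97487033-97565848, had 3 domains with 9 LSD1 regions, and LSD1 over IgG was 4.13 (3.48 to 4.94). The run at chr7:52776780-52827657 had 3 domains without an LSD1 region and a ratio of 3.68 (2.88 to 4.76). The intervals of this run and of that with Mllt6 overlapped.

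The width limit cut through a continuum. Just inside it were chr1:138126595-138131595 with 5001 bp and chr7:71080190-71085199 with 5010 bp, holding 96 and 103 LSD1 reads, 207 and 179 H3K4me2 reads, 20 and 31 IgG reads and 10 and 6 Input reads. Just outside were chr15:39611499-39616493 with 4995 bp and chr8:73131092-73136085 with 4994 bp, holding 72 and 152 LSD1 reads, 193 and 293 H3K4me2 reads, 14 and 29 IgG reads and 10 and 12 Input reads. The number of LSD1 regions was 0 and 1 inside the limit and 0 and 2 outside it. A further 3 domains of 5 kb or more were left out for touching an IgG region. In both chr11:3030668-3036172, with 441 LSD1, 444 H3K4me2, 406 IgG and 168 Input reads, and chr17:39979851-39985862, with 2046 LSD1, 1548 H3K4me2, 2499 IgG and 548 Input reads, LSD1 was below IgG per library size, at 0.885 and 0.667 times the IgG value. The third was chr19:5802550-5811338 at Malat1, a long noncoding RNA gene, with 165 LSD1, 391 H3K4me2, 61 IgG and 22 Input reads and a ratio of 2.19.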

How the data were processed

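Reads of 36 bases from 1 LSD1, 1 H3K4me2, 1 IgG and 1 Input library have positions in mm9, the build in the submitters' processing notes. Which aligner and peak caller made the files, and with which threshold and control, is not given in the sources used here. The authors deposited 1 line per aligned read, counted here as a read count, and region lists without scores for LSD1, H3K4me2 and IgG. No start and strand occurs more than once in a library.

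Read starts were moved 100 bp along their strand and counted per domain, region, gap or flank. Overlap meant at least 1 bp. Domains joined regions within 1 kb. Shares carry exact Clopper-Pearson intervals, densities exact Poisson intervals, ratios of RPM exact conditional binomial intervals, and ratios of ratios log-normal intervals, all at 95%. Rankings and the fold limit of 2 used 0.5 reads added to both counts. With 1 library a group there was no test between groups. The counting and ratio steps were tested on simulated data.

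Named were the 10 widest domains, the 5 highest and 5 lowest LSD1 to IgG ratios, the 5 with most LSD1 regions, the 3 widest without one, the 3 widest of 1 region, the 3 with most gaps, 2 on either side of the width limit, and members on listed loci. Members, loci and rules were chosen with earlier results of these data known, 6 loci after their values had been seen. mm9 positions count from 1, and no mm9 annotation was used, so exons and introns are not given. Alternatives were other joining distances, width limits, controls, scaling and read positions. Scripts ran in Python 3.11.15 with scipy 1.17.1, pandas 2.3.3 and numpy 2.4.6; figures were drawn with matplotlib 3.10.9.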

Additional observations from a re-analysis of the deposited data

How the results depend on the processing

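Depth and the lack of replicates limit every value. No paired analysis was possible because there was only 1 library to a group. Of 88 alternative values for 11 results, 51 moved by less than the counting interval or, for counts, less than 1.5 times, 36 moved by more and 1 reversed. Moving read starts or not and adding 1 read in place of 0.5 changed none by more than that. The cause of the shifts was not tested, except that other joining distances and width limits change the members themselves.

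Joining within 500 bp gave 155 broad domains, 154 of them with an LSD1 to IgG ratio of 2 or more, 173.0 LSD1 regions per Mb, 0.936 for broad domains divided by those of 2 to 5 kb and 0.848 for gaps divided by regions. Joining within 2 kb gave 729 domains, 710 at a ratio of 2 or more, 122.0 LSD1 regions per Mb, H3K4me2 over IgG of 5.99, LSD1 over IgG of 3.15 and 0.642 for gaps divided by regions, and it turned the inner 50% divided by the outer 50% to 0.965. A width limit of 4 kb gave 662 domains, 650 at a ratio of 2 or more, and LSD1 over IgG of 3.35. Broad domains divided by those of 2 to 4 kb, the class below this limit, gave 0.983. A limit of 7.5 kb gave 100 domains, 99 at a ratio of 2 or more, 71.0% with an LSD1 region, H3K4me2 over IgG of 6.16, LSD1 over IgG of 3.15, and 0.922 and 0.844 for the ratios to the 2 to 5 kb class and of gaps to regions.

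Input as control gave 11.1 for H3K4me2, 5.67 for LSD1 and 0.826 for broad divided by 2 to 5 kb. Scaling to reads outside called regions gave 7.78 for H3K4me2 and 3.55 for LSD1 over IgG. Keeping domains that touch an IgG region gave 5.30, 2.79, 0.819, and 0.890 for gaps divided by regions. Leaving out domains with an Input density of 3 or more times the genome mean, 1 member here, gave 6.71, 3.40 and 0.994. The upper 50% of LSD1 regions by density gave 37.5% of domains with an LSD1 region and 75.6 regions per Mb. Values without the domain of most Input reads were added after seeing the data.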
